A study of Mus musculus with 4 samples.

Results

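The genes described here are 56 regulators of RNA splicing, translation and decay, many of them known from the nervous system. They were taken by name, as the genes that a probe set of the array platform annotation maps to alone, and they fall into 16 regulators active mainly in neurons, 9 linked to neural progenitors and 31 with broad roles. Of the 56 genes, 54 had such a probe set, out of 18193 genes on the array. Igf2bp2 and Rbpms2 had none of their own and were not analysed here. Each gene is represented by its brightest probe set, the one with the highest mean over the 4 arrays. A level filter that kept the brightest 60% of probe sets left 43 of the 54 genes for the main test and 11 below it.

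RNA was measured on Affymetrix mouse arrays, 2 per line. NSCL61-sox11 cells carry the genotype p53-/- and express sox11, and NSCL61 cells carry p53-/- alone. Both are C57BL/6 lines of neural stem cells, described as resembling glioma-initiating cells, from the brain of embryos at day 14.5, with the neuroepithelial cells taken from the telencephalon and grown as floating spheres in serum-free medium. Each condition is 1 line, and the labels do not say whether its arrays were made from different cultures. The p-values therefore cover the spread from array to array, which can be purely technical. The comparison asks which of these genes differ in mRNA level between the line that expresses Sox11 and the line it was set against. Neither splicing nor protein was measured.

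The arrays of a line correlated at r = 0.994 in NSCL61-sox11 and r = 0.995 in NSCL61, against 0.968 to 0.972 between the lines. These values cover the 27022 probe sets kept by the level filter. Sox11, the expressed transcription factor, had a level of 7.74 and 7.97 (log2 signal) on the NSCL61-sox11 arrays, against 5.09 and 4.82 on the NSCL61 arrays, and it was higher in NSCL61-sox11 on all 6 of its probe sets. Of 6 neural stem markers, 4 were tested, of which Slc1a3 rose (log2 fold change 1.19, adjusted p = 0.00298), Sox2 and Vim fell (Vim -0.21, adjusted p = 0.0201) and Nes did not pass. Nes averaged 9.44 ± 0.10 in NSCL61-sox11 and 9.39 ± 0.13 in NSCL61 (SD, n = 2 each), and Sox2 averaged 8.83 ± 0.21 in NSCL61-sox11 and 10.52 ± 0.32 in NSCL61. Fabp7 and Prom1 lay below the level filter in both lines. Of 6 markers of fibroblasts and meninges, 5 were tested and 3 rose, and the mean log2 level of the 6 was 7.90 and 8.24 in NSCL61-sox11, against 6.51 and 7.09 in NSCL61. Their summed linear signal was 2807 and 5019 in NSCL61-sox11, against 1005 and 1733 in NSCL61. Of 7 neuron markers, 4 were tested, of which 2 rose and 1 fell. Of 6 markers of the oligodendrocyte lineage, 4 were tested and 1 rose, Pdgfra (log2 fold change 1.91, adjusted p = 0.000650). Cspg4, Mbp and Sox10 did not pass, at -0.07, -0.11 and -0.20, and Olig1 and Olig2 lay below the level filter. The summed linear signal of the 6 was 1300 and 1470 in NSCL61-sox11, against 602 and 631 in NSCL61. Pdgfra, the brightest of them, weighed most in that sum, with log2 levels of 9.97 and 10.18 in NSCL61-sox11, against 7.97 and 8.35 in NSCL61. These markers moved with the comparison of the lines, and their part in the results below was not tested. Less RNA per cell and fewer cells of a type cannot be told apart in such bulk samples.

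RNA-binding proteins act on transcripts after they are made. Some choose which exons are kept, others set how long an mRNA lasts, where in the cell it goes or how well it is translated. During neural development the splicing repressor Ptbp1, abundant in progenitors, gives way to Ptbp2 and then to neuronal proteins of the Elavl, Nova, Rbfox and Celf families, while Musashi, Lin28 and Igf2bp proteins are associated with the progenitor state. Several of these proteins are also abundant in glioma.

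Among the 43 tested members, 13 passed the test (limma, Benjamini-Hochberg adjusted p under 0.05 over all tested probe sets), which is 30.2% of them, beside 19.2% of all 13084 genes tested. The members were chosen with earlier results of these data known, so their shares are a description and no test of the list. Elavl2, Ptbp3, Khdrbs1, Stau2, Zfp36l1 and Zfp36l2 rose in NSCL61-sox11, and Khdrbs3, Ptbp2, Igf2bp3, Pcbp2, Syncrip, Fxr1 and Fxr2 fell. The rises made up 14.0% of the tested members, against 10.0% of all genes, and the falls 16.3%, against 9.19% of all genes. Most changes were under 2-fold. They ran from -1.34 to 0.93 on the log2 scale over all tested members, and 1 member, Khdrbs3, both passed the test and differed by at least 2-fold, beside 4.48% of all genes. The members' median log2 fold change was -0.06, and that of all genes was -0.02. The arrays of the lines did not overlap for 30 of the 43 members, 69.8%, beside 62.2% of all genes.

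The count depended on which arrays were used and on how the arrays were scaled. It was 14 without either NSCL61-sox11 array, but 3 without NSCL61 array 1 and 3 without NSCL61 array 2, where the genes called overall numbered 908 and 944, against 2510 with all arrays. Khdrbs1 and Khdrbs3 were called in every fit that left out 1 array, and the other 11 calls were lost in at least 1. All 13 kept their sign under each alternative setting that gave them a value, which was 13 settings for Elavl2, absent from the brightest 40% of probe sets, and 14 for the others. Scaling the arrays to the poly-A spike-in controls shifted the median of all genes by -0.40, and the split of called members was then 0 rises and 6 falls. Scaling to the hybridisation controls shifted it by -0.22 and gave 3 rises and 11 falls. These counts include genes not called in the main test, such as Cpeb4 on both scales and Cpeb2 among the 3 rises. Of the 13 members called in the main test, 5 stayed called on the poly-A scale and 9 on the hybridisation control scale. Khdrbs1, Ptbp3, Stau2 and Zfp36l2 were called on neither. The rises are therefore stated relative to the bulk of the genes on the array, and on the poly-A scale none of the 6 passed the test.

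**Figure D1:**
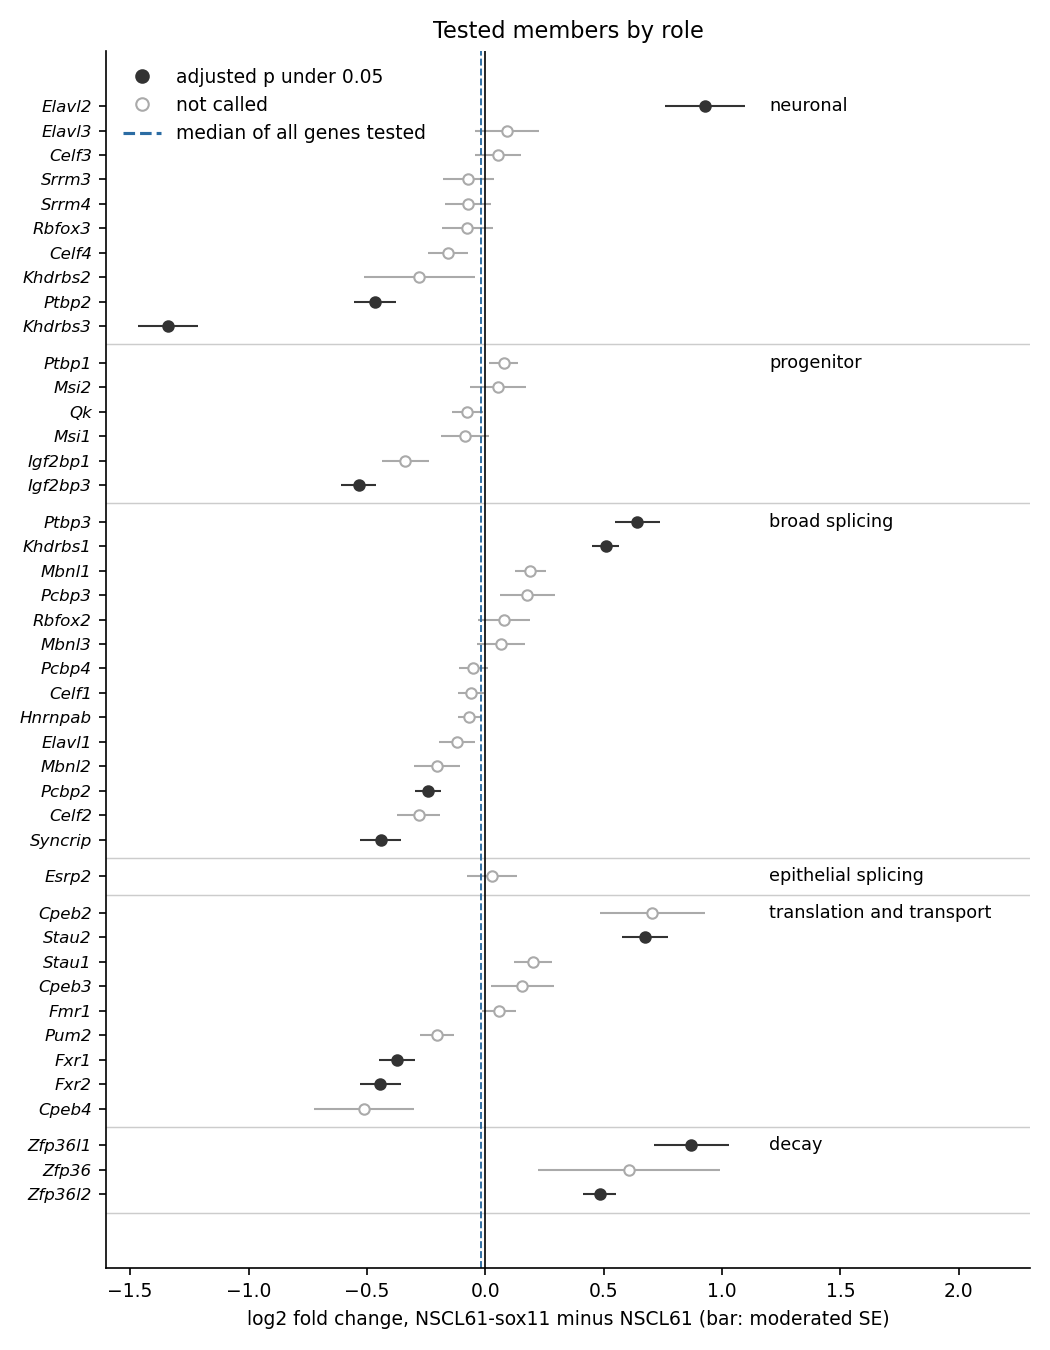
Log2 fold change (NSCL61-sox11 minus NSCL61, x axis) of the brightest probe set of each of the 43 tested members, ordered by size within each role, with bars for the moderated SE. Filled points passed the test, and the dashed line is the median of all genes tested, -0.02. The 13 filled points lie on both sides of it, and Khdrbs3 at -1.34 lies farthest from it.

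The neuronal regulators did not move together. Of 16 listed genes, 10 were tested, 1 rose, 2 fell and 7 did not pass the test, with a median log2 fold change of -0.07. Elavl2, a neuronal member of the Hu family that stabilises AU-rich mRNAs and shapes their splicing, had levels of 6.73 and 6.25 in NSCL61-sox11, against 5.60 and 5.52 in NSCL61. Both NSCL61-sox11 arrays were above both NSCL61 arrays, by more than the arrays of a line differed, and the log2 fold change was 0.93 (SE 0.17, adjusted p = 0.0147). Its adjusted p was 0.0688 without NSCL61 array 1 and 0.0847 without NSCL61 array 2.

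Khdrbs3, also called Slm2, a splicing factor of the STAR family that acts on neurexin transcripts, had levels of 6.81 and 7.11 in NSCL61-sox11, against 8.36 and 8.25 in NSCL61. The gap between the lines was wide next to the spread within them. It fell by 1.34 on the log2 scale (SE 0.13, adjusted p = 0.00143), which is 2.53-fold lower, and it was the only member called in all 14 alternative settings. It has 1 probe set of its own. Its relative Khdrbs2, or Slm1, did not pass the test (log2 fold change -0.28, adjusted p = 0.481).

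Ptbp2, the neuronal paralogue of the splicing repressor Ptbp1, had levels of 10.42 and 10.50 in NSCL61-sox11, against 10.83 and 11.02 in NSCL61. The arrays did not overlap, and the log2 fold change was -0.47 (SE 0.088, adjusted p = 0.0167). The adjusted p was 0.0546 without NSCL61 array 1 and 0.142 without NSCL61 array 2. Averaging its 2 tested probe sets gave a log2 fold change of -0.35 and an adjusted p of 0.0520.

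The brightest neuronal regulators that did not pass were Celf4 and Rbfox3. Celf4, which binds the 3' ends of many neuronal mRNAs, had levels of 9.27 and 9.36 in NSCL61-sox11, against 9.50 and 9.44 in NSCL61 (log2 fold change -0.16, adjusted p = 0.268). The lines did not overlap, but the gap was close to the spread within a line. Another of its 3 tested probe sets did pass, at -0.33 (adjusted p = 0.0490), and the mean of the 3 gave -0.31 (adjusted p = 0.0487). Rbfox3, the splicing factor known as the neuronal marker NeuN, had levels of 7.09 and 7.03 in NSCL61-sox11, against 7.24 and 7.04 in NSCL61. These levels overlapped, with a log2 fold change of -0.08 (adjusted p = 0.694).

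The log2 fold changes of the other tested neuronal regulators were all near 0. They were 0.09 for Elavl3, 0.05 for Celf3, -0.07 for Srrm3 and -0.07 for Srrm4, the activator of neuronal microexons. Celf5, Celf6, Elavl4, Nova1, Nova2 and Rbfox1 lay below the level filter, and none of them had an unadjusted p under 0.05 in a limma fit of all probe sets. The lowest adjusted p in that fit among all 11 members below the filter was 0.382, and their log2 fold changes ran from -0.19 to 0.25. The files hold no detection calls, so low signal here does not show that a gene is silent.

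Among the progenitor regulators 1 gene passed the test. Of 9 listed genes, 8 had a probe set and 6 were tested. None rose, beside 10.0% of all genes, and 1 fell, which is 16.7%, beside 9.19% of all genes. The other 5 did not pass. The median log2 fold change was -0.08, close to the -0.07 of the neuronal list. No test of the difference between the lists was made. Igf2bp3, a fetal mRNA-binding protein that stabilises growth-related transcripts, had levels of 9.68 and 9.69 in NSCL61-sox11, against 10.24 and 10.21 in NSCL61. The arrays of a line were nearly level and the lines well apart, with a log2 fold change of -0.53 (SE 0.074, adjusted p = 0.00593). All 6 of its tested probe sets fell, with log2 fold changes of -0.73 to -0.36. Without NSCL61 array 1 the adjusted p was 0.0731, and without NSCL61 array 2 it was 0.0624.

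Igf2bp1, of the same family, had a log2 fold change of -0.34 and did not pass (adjusted p = 0.0635), and its 4 tested probe sets lay between -0.34 and -0.15. Ptbp1, the repressor of neuronal exons in non-neuronal cells, had levels of 12.65 and 12.52 in NSCL61-sox11, against 12.49 and 12.52 in NSCL61. The NSCL61-sox11 array 2 lay level with the NSCL61 arrays, and the log2 fold change was 0.08 (SE 0.061, adjusted p = 0.447). Ptbp1 gave no call where its paralogues Ptbp2 and Ptbp3 did, with opposite signs; whether the paralogues differ from each other was not tested.

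Qk, or quaking, a STAR-family protein of neural progenitors and glia, had levels of 11.85 and 11.94 in NSCL61-sox11, against 11.92 and 12.02 in NSCL61. These overlapped, and the log2 fold change was -0.08 (SE 0.065, adjusted p = 0.489). The Musashi proteins, translational regulators of stem cells, gave log2 fold changes of -0.08 for Msi1 and 0.05 for Msi2, with adjusted p of 0.630 and 0.807. Lin28a and Lin28b, which block maturation of let-7, lay below the level filter.

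The broadly expressed splicing regulators held 14 tested genes, of which 2 rose, 2 fell and 10 did not pass, with a median of -0.06. Rises and falls were 14.3% each, beside 10.0% and 9.19% of all genes. Ptbp3, also known as Rod1, had levels of 9.70 and 9.86 in NSCL61-sox11, against 9.07 and 9.20 in NSCL61. The lines were well apart, and the log2 fold change was 0.64 (SE 0.096, adjusted p = 0.00767), a 1.56-fold rise. Without NSCL61 array 1 its adjusted p was 0.0740, and without NSCL61 array 2 it was 0.0445.

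Khdrbs1, or Sam68, the widely expressed relative of Khdrbs3, moved the other way from it. Its levels were 12.26 and 12.27 in NSCL61-sox11, against 11.73 and 11.79 in NSCL61, with a log2 fold change of 0.51 (SE 0.057, adjusted p = 0.00281). Both NSCL61-sox11 arrays lay above both NSCL61 arrays, and all 5 tested probe sets rose, by 0.35 to 0.54. On the poly-A scale its log2 fold change was 0.10 (adjusted p = 0.756).

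Pcbp2, a poly(C)-binding protein of the hnRNP family, had levels of 12.77 and 12.86 in NSCL61-sox11, against 13.02 and 13.09 in NSCL61. The gap was narrow but larger than the spread within a line, and the log2 fold change was -0.24 (SE 0.056, adjusted p = 0.0320). Syncrip, or hnRNP Q, a component of mRNA transport granules, had levels of 10.54 and 10.33 in NSCL61-sox11, against 10.89 and 10.87 in NSCL61 (log2 fold change -0.44, SE 0.088, adjusted p = 0.0194). The NSCL61 arrays were almost level, and both NSCL61-sox11 arrays lay below them. The adjusted p of Pcbp2 was 0.150 without NSCL61 array 1 and 0.253 without NSCL61 array 2. That of Syncrip was 0.140 without NSCL61 array 1 and 0.127 without NSCL61 array 2. With the tested probe sets of a gene averaged, the log2 fold change was -0.09 for Pcbp2 (adjusted p = 0.408) and -0.17 for Syncrip (adjusted p = 0.192).

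The muscleblind factors, which favour adult over fetal splice forms, did not pass, with log2 fold changes of 0.19 for Mbnl1, -0.20 for Mbnl2 and 0.07 for Mbnl3. Neither did Rbfox2 at 0.08, Celf2 at -0.28, Pcbp3 at 0.18 or Pcbp4 at -0.05. Of the epithelial splicing regulators, Esrp2 gave 0.03 and Esrp1 lay below the filter.

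Among the regulators of translation and mRNA transport, 9 of the 11 genes with a probe set were tested, 1 rose, 2 fell and 6 did not pass. The rises were 11.1% and the falls 22.2%, beside 10.0% and 9.19% of all genes. Stau2, a neuronal Staufen protein that carries mRNA into dendrites and is inherited asymmetrically by dividing progenitors, had levels of 8.03 and 7.89 in NSCL61-sox11, against 7.29 and 7.27 in NSCL61. The lines were far apart relative to the arrays within them, and the log2 fold change was 0.67 (SE 0.098, adjusted p = 0.00693). Of its 3 tested probe sets, 2 rose. Stau1, its ubiquitous paralogue, gave 0.20 (adjusted p = 0.146), with 1 of 3 probe sets called at 0.39 (adjusted p = 0.0469). For Stau2 the adjusted p was 0.0536 without NSCL61 array 1 and 0.0558 without NSCL61 array 2.

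In the fragile X family, Fxr1 and Fxr2 fell and Fmr1 did not pass. Fxr1 had levels of 10.69 and 10.56 in NSCL61-sox11, against 10.99 and 11.00 in NSCL61, and fell with a log2 fold change of -0.37 (SE 0.076, adjusted p = 0.0212). Fxr2 had levels of 9.22 and 9.11 in NSCL61-sox11, against 9.59 and 9.62 in NSCL61, and fell with a log2 fold change of -0.44 (SE 0.085, adjusted p = 0.0177). For both genes the NSCL61 arrays were nearly level and neither line overlapped the other. Fmr1, which encodes FMRP, the translational repressor lost in fragile X syndrome, gave 0.06 (adjusted p = 0.638), and its other tested probe sets gave -0.19 and -0.09, neither called. Fmr1 was not tested against Fxr1 or Fxr2. Of the 4 tested probe sets of Fxr1, 3 fell, while Fxr2 has a single one. The adjusted p of Fxr1 was 0.152 without NSCL61 array 1 and 0.156 without NSCL61 array 2, and that of Fxr2 was 0.119 without NSCL61 array 1 and 0.139 without NSCL61 array 2.

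The cytoplasmic polyadenylation element binding proteins, which control poly(A) tail length and translation, had wide array spreads. Cpeb2 had levels of 8.18 and 8.35 in NSCL61-sox11, against 7.92 and 7.20 in NSCL61. Both NSCL61-sox11 arrays were higher, but the NSCL61 arrays differed from each other by about as much as the lines did, and the log2 fold change of 0.71 did not pass (SE 0.22, adjusted p = 0.0800). Without NSCL61 array 1 it was 1.06 and passed (adjusted p = 0.0160). Its other tested probe set did, at 0.73 (adjusted p = 0.0385). Cpeb4 gave -0.51 (SE 0.21, adjusted p = 0.152), and its 3 probe sets lay between -0.61 and -0.51 with none called. Without NSCL61-sox11 array 2 it was -0.81 and passed (adjusted p = 0.0117). Pum2, a repressor that binds 3' ends of mRNAs, gave -0.20 (adjusted p = 0.103). Cpeb1 and Rbpms lay below the filter.

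The decay factors bind AU-rich elements and bring the mRNA to deadenylation. All 3 were tested, and 2 rose, which is 66.7%, beside 10.0% of all genes. The other, Zfp36, did not pass. The median of 0.61 is the value of Zfp36 itself, beside -0.02 for all genes. Zfp36l1 had levels of 9.61 and 10.08 in NSCL61-sox11, against 8.91 and 9.05 in NSCL61, and its log2 fold change was 0.87 (SE 0.16, adjusted p = 0.0147). Zfp36l2 had levels of 12.44 and 12.61 in NSCL61-sox11, against 12.04 and 12.04 in NSCL61, and its log2 fold change was 0.48 (SE 0.070, adjusted p = 0.00688). For both genes the NSCL61-sox11 arrays spread more than the NSCL61 arrays but stayed above them. The other tested probe set of Zfp36l1 gave 0.69 and did not pass (adjusted p = 0.0716). Of the 3 tested probe sets of Zfp36l2, 2 rose, and 1439054_at gave 0.08 (adjusted p = 0.705). With probe sets averaged, the log2 fold change was 0.78 for Zfp36l1 (adjusted p = 0.0358) and 0.32 for Zfp36l2 (adjusted p = 0.0333). Zfp36, or tristetraprolin, had levels of 8.30 and 9.44 in NSCL61-sox11, against 7.91 and 8.61 in NSCL61. Array 2 was the higher in each line, the lines overlapped, and the log2 fold change of 0.61 did not pass (SE 0.39, adjusted p = 0.342). Without NSCL61-sox11 array 1 it was 1.18 and passed (adjusted p = 0.0172). The adjusted p of Zfp36l1 was 0.0979 without NSCL61 array 1 and 0.0648 without NSCL61 array 2. That of Zfp36l2 was 0.0654 without NSCL61 array 1 and 0.0657 without NSCL61 array 2. On the poly-A scale Zfp36l1 gave 0.47 (adjusted p = 0.235) and Zfp36l2 gave 0.08 (adjusted p = 0.814).

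**Figure D2:**
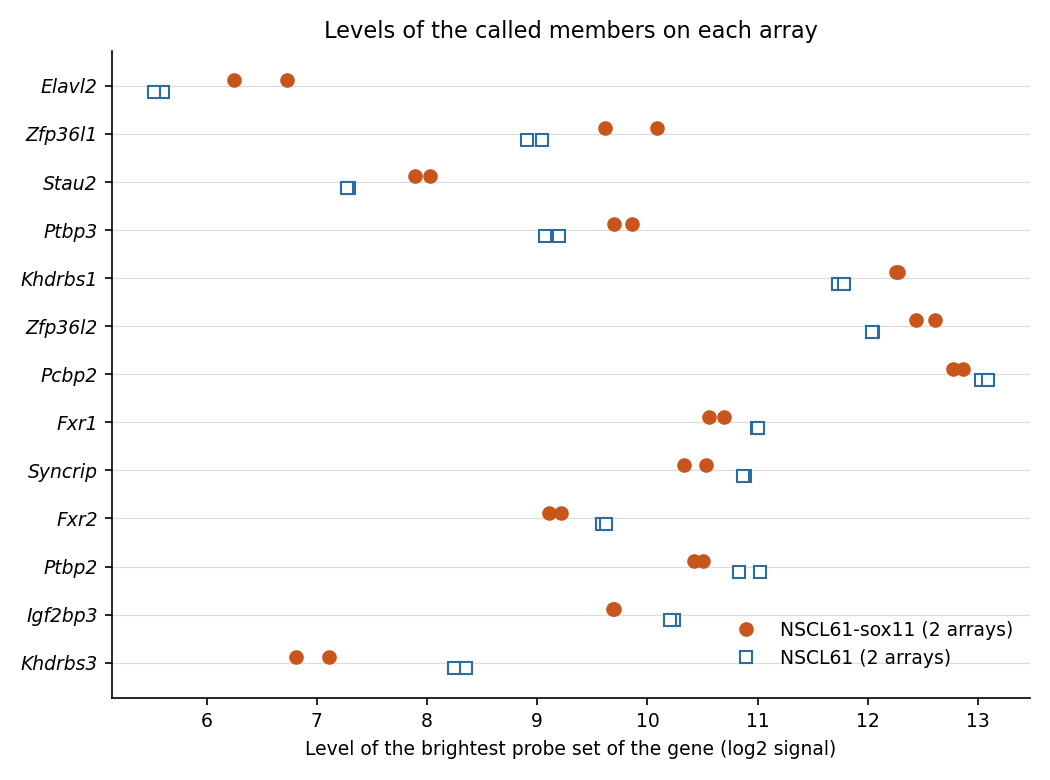
Level (log2 signal of the brightest probe set, x axis) of the 13 called members on each of the 4 arrays, with filled points for NSCL61-sox11 and open squares for NSCL61. The lines do not overlap for any of the 13 genes, and the gap is widest for Khdrbs3, with 6.81 and 7.11 in NSCL61-sox11 against 8.36 and 8.25 in NSCL61. Levels can be compared between arrays of 1 gene, not between genes.

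**Figure D3:**
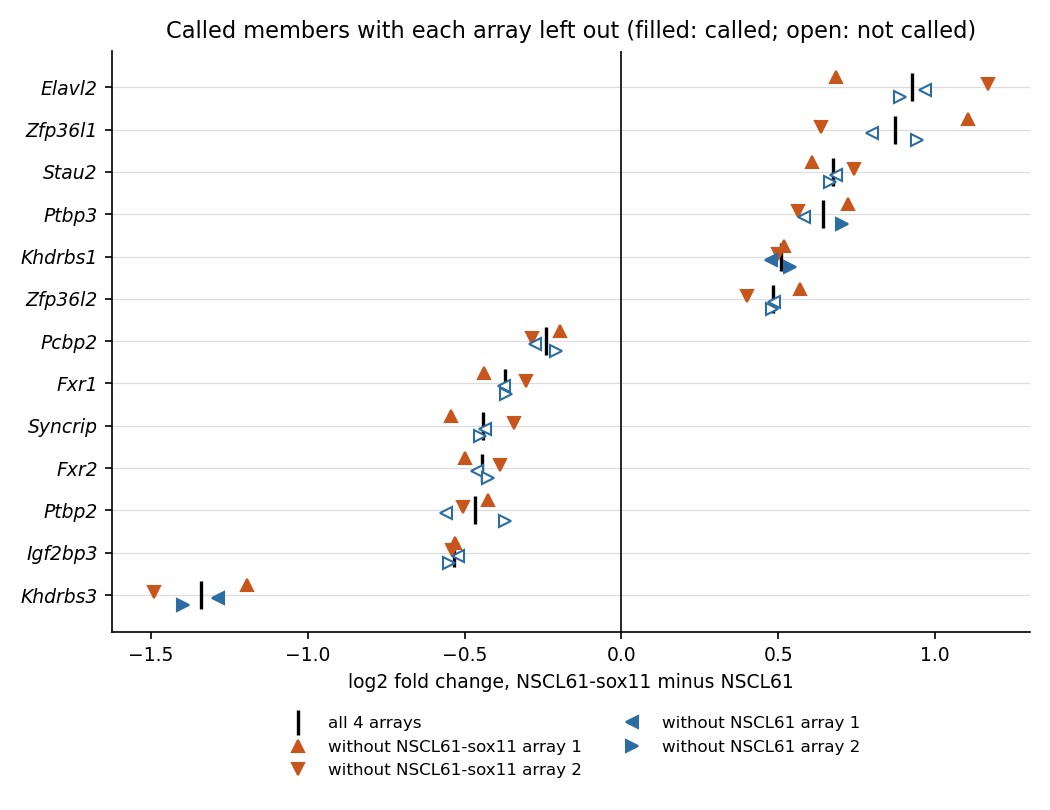
Log2 fold change (NSCL61-sox11 minus NSCL61, x axis) of the 13 called members with all 4 arrays (black bars) and with each array left out (triangles), filled where the gene was called and open where it was not. Leaving out an NSCL61 array left the sizes close to those of all arrays but opened most of the symbols, while Khdrbs1 and Khdrbs3 stayed filled throughout.

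Promoters are shown for 4 of the 6 called members that each have a single window in the RefSeq table of the mouse assembly GRCm38.p6, because the lines differ in a transcription factor that binds DNA. The other 2, Igf2bp3 and Syncrip, are given by their counts. Each is the 250 bases before the transcription start on the gene's own strand, written 5' to 3'. Ptbp2 is at chr3:119783389-119783638 on the minus strand, Fxr1 at chr3:34019829-34020078 on the plus strand, Fxr2 at chr11:69632721-69632970 on the plus strand and Zfp36l1 at chr12:80113014-80113263 on the minus strand. Capitals mark matches, on either strand, to the Sox cores ACAAAG and ACAATG, the GC box GGGCGG, the CCAAT box and the TATA box TATAAA, and neighbouring matches may overlap.
Ptbp2: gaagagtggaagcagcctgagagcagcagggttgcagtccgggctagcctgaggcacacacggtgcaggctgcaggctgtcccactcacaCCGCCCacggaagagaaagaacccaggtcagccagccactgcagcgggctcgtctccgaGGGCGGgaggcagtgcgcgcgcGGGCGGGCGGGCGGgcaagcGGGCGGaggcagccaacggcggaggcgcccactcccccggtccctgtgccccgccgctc
Fxr1: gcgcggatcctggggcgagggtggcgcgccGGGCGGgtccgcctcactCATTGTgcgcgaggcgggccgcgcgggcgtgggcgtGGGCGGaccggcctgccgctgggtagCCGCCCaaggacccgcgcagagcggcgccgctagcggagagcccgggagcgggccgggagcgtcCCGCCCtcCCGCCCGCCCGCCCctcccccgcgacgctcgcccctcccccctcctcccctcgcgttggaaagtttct
Fxr2: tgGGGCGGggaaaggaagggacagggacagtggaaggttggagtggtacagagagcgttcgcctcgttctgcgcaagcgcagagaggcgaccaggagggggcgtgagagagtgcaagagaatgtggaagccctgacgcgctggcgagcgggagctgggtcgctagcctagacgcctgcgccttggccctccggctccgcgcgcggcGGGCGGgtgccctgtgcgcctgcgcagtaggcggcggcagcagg
Zfp36l1: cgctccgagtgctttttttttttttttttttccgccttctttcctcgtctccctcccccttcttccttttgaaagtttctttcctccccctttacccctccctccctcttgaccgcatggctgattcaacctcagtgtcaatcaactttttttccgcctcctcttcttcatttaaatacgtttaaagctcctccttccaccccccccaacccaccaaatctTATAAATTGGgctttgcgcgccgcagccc

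Ptbp2, Fxr1 and Fxr2, which fell, have GC-rich windows of 72.4%, 80.0% and 69.6% GC with 6, 7 and 2 GC boxes. Zfp36l1, which rose, has a window of 48.4% GC with a TATA box 29 to 24 bases before the start and, on the opposite strand, a CCAAT box 24 to 20 bases before it. Of the windows not printed, both of genes that fell, that of Igf2bp3 has 60.4% GC with 0 GC boxes and 1 CCAAT box, and that of Syncrip has 72.8% GC with 2 GC boxes. Among these 6 windows that of Zfp36l1 alone belongs to a gene that rose, so they do not compare rises with falls. No window was available for Khdrbs1, Khdrbs3, Ptbp3, Stau2 and Zfp36l2, and Elavl2 and Pcbp2 have several. A Sox core occurs in 1 of the 6 windows, that of Fxr1, as ACAATG on the opposite strand 202 to 197 bases before the start. Over the 14 windows of the 8 called members in the table, 14.3% hold either Sox core, beside 25.3% of the 75 windows of all 41 members in the table and 25.2% of all 32851 windows. GC boxes occur in 78.6% of the called members' windows, in 57.3% of all members' windows and in 32.7% of all windows. The median GC content is 69.8% for the called members, 63.2% for all members and 52.4% for all windows. A match is a string of letters, and binding was not measured.

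Several members gave different answers from different probe sets. Of 131 tested probe sets of members, 43 were called, 32.8%, beside 17.3% of all probe sets tested. In 21 of the 43 tested members at least 1 probe set was called, beside 22.8% of all genes tested. In 8 of the 21, Celf1, Celf4, Cpeb2, Cpeb3, Elavl1, Hnrnpab, Qk and Stau1, the brightest was not. Of 34 members with several tested probe sets, 24 had the same sign on all of them and 10 had both signs. In 3 members, Hnrnpab, Pcbp2 and Syncrip, 1 probe set rose and another fell, each passing the test, which was the case for 11 of the 6085 genes with several tested probe sets on the whole array. The difference between a gene's brightest probe set and each other one was then tested directly, and 12 of 88 pairs passed, beside 8.56% of all 10458 pairs. They lay in 9 of the 34 members, beside 12.3% of all genes with several tested probe sets. Such counts per gene rise with the number of probe sets a gene has. Several were tested for 34 of the 43 members, beside 6085 of all 13084 genes. The 88 pairs came from 34 members, and the 10458 pairs from 6085 genes. No adjustment for this was made.

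**Figure D4:**
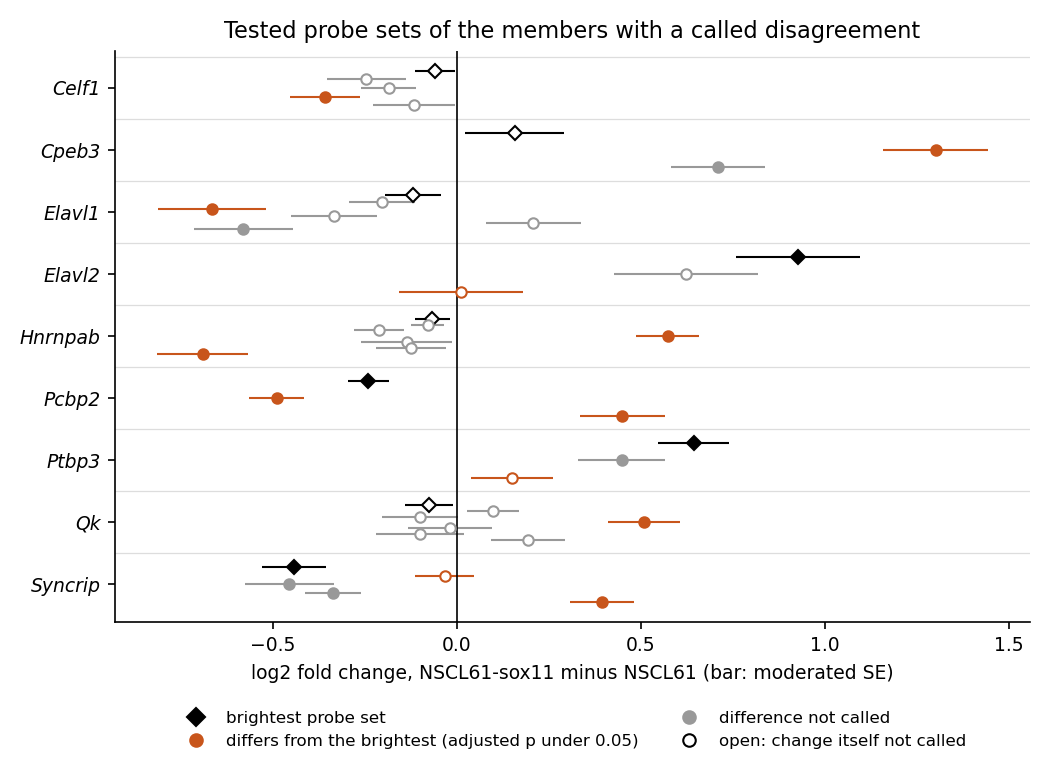
Log2 fold change (NSCL61-sox11 minus NSCL61, x axis, bars for the moderated SE) of every tested probe set of the 9 members in which a probe set differed from the brightest 1. Diamonds are the brightest probe sets, orange points those that differed from it, and open symbols those whose own change did not pass the test. In Hnrnpab, Pcbp2, Qk and Syncrip an orange point lies on the other side of 0 from the diamond.

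The most clearly split gene by this test was Syncrip. Its brightest probe set fell by 0.44 on the log2 scale, while probe set 1428546_at had levels of 9.26 and 9.16 in NSCL61-sox11, against 8.83 and 8.81 in NSCL61, a log2 fold change of 0.39 (adjusted p = 0.0275). The lines did not overlap on either probe set, in opposite directions, and this probe set lay 0.84 above the brightest in log2 fold change (SE 0.072, adjusted p = 9.94e-05). Another probe set, 1426402_at, gave -0.03 (adjusted p = 0.824) and also lay above the brightest, by 0.41 (SE 0.063, adjusted p = 0.00365). The remaining pair of its probe sets fell like the brightest, at -0.46 and -0.34.

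Hnrnpab, which encodes an hnRNP involved in mRNA transport and transcription, showed a rise and a fall on different probe sets around a brightest one that did not pass (log2 fold change -0.07, adjusted p = 0.397). Probe set 1426114_at had levels of 12.64 and 12.87 in NSCL61-sox11, against 12.22 and 12.14 in NSCL61, a log2 fold change of 0.57 (adjusted p = 0.00759). Probe set 1459880_at had levels of 5.25 and 5.07 in NSCL61-sox11, against 5.75 and 5.95 in NSCL61, a log2 fold change of -0.69 (adjusted p = 0.0142). The log2 fold change of 1426114_at lay 0.64 above that of the brightest (SE 0.082, adjusted p = 0.00110), and that of 1459880_at lay 0.62 below it (SE 0.090, adjusted p = 0.00241). The other 4 lay between -0.21 and -0.08 with none called.

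In Pcbp2 the brightest probe set fell by 0.24 on the log2 scale, while 1445381_at had levels of 6.75 and 6.89 in NSCL61-sox11, against 6.47 and 6.28 in NSCL61 (log2 fold change 0.45, adjusted p = 0.0440). It lay 0.69 above the brightest in log2 fold change (SE 0.090, adjusted p = 0.00125). The remaining probe set fell further than the brightest, at -0.49, which is 0.25 below it (SE 0.058, adjusted p = 0.0271). In Qk, 1 of 7 tested probe sets rose. That probe set, 1429735_at, had levels of 6.90 and 6.93 in NSCL61-sox11, against 6.45 and 6.36 in NSCL61 (log2 fold change 0.51, adjusted p = 0.0174), and it lay 0.59 above the brightest in log2 fold change (SE 0.087, adjusted p = 0.00282). The lines were clearly apart on it and overlapped on the brightest.

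Cpeb3 had the largest difference among the 88 pairs of members. Its brightest probe set had levels of 6.18 and 5.87 in NSCL61-sox11, against 5.92 and 5.81 in NSCL61, which overlapped (log2 fold change 0.16, adjusted p = 0.485). Probe set 1455372_at had levels of 6.13 and 6.22 in NSCL61-sox11, against 4.70 and 5.05 in NSCL61, a log2 fold change of 1.30 (adjusted p = 0.00260). It lay 1.14 above the brightest in log2 fold change (SE 0.21, adjusted p = 0.00953). The third tested probe set gave 0.71 (adjusted p = 0.0140). The mean of the 3, which includes 1455372_at, gave 0.72 (adjusted p = 0.00611), so the gene's call depended on the probe set that represents it.

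The rise of Elavl2 was not seen on all of its probe sets. Probe set 1421881_a_at had levels of 5.70 and 5.26 in NSCL61-sox11, against 5.57 and 5.37 in NSCL61, which overlapped (log2 fold change 0.01, adjusted p = 0.979), and the brightest exceeded it by 0.92 (SE 0.17, adjusted p = 0.00842). Its remaining tested probe set gave 0.62 (adjusted p = 0.0781), and the mean of the 3 gave 0.52 (adjusted p = 0.0877). In Ptbp3, probe set 1424084_at gave 0.15 (adjusted p = 0.420), below the brightest by 0.49 (SE 0.12, adjusted p = 0.0329), and 2 of the 3 probe sets rose.

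The remaining split members were the mRNA stabiliser Elavl1, or HuR, and the splicing factor Celf1. In Elavl1 the brightest probe set gave -0.12 (adjusted p = 0.343) and 1452858_at gave -0.67 (adjusted p = 0.0275), which is 0.55 below it (SE 0.14, adjusted p = 0.0358). A further Elavl1 probe set fell, at -0.58 (adjusted p = 0.0325), and another gave 0.21 (adjusted p = 0.334). In Celf1 the brightest gave -0.06 (adjusted p = 0.518) and 1425932_a_at gave -0.36 (adjusted p = 0.0481), which is 0.30 below it (SE 0.075, adjusted p = 0.0358). For both genes a dimmer probe set showed the fall that the brightest did not.

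The annotation names the source sequence of both probe sets for 81 of the 88 pairs. Of 22 pairs designed from the same sequence 1 was called, that of Elavl2, and of 59 pairs from different sequences 9 were called. With each array left out in turn, 9 to 11 of the 12 called pairs remained called. Where each probe set lies in its gene was not examined, so the values do not say whether transcript forms, other transcripts or probe performance differ.

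The rest of the splicing and RNA-binding machinery was measured in a separate list of 58 genes, of which 54 had a probe set of their own and 51 were tested. Of these, 3 rose, 7 fell and 41 did not pass, so 19.6% were called, near the 19.2% of all genes, with a median of -0.05. The 3 rises were Srsf4, an SR splicing factor, at 0.34 (adjusted p = 0.0455), Hnrnpa0 at 0.29 (adjusted p = 0.0227) and Ybx1, an mRNA-packaging protein, at 0.28 (adjusted p = 0.0227). The 3 largest falls were Rbm38 at -0.70 (adjusted p = 0.00671), Dicer1, which cuts microRNA precursors, at -0.52 (adjusted p = 0.0104) and Rbm20 at -0.49 (adjusted p = 0.0235). None of these rises passed on the poly-A or the hybridisation control scale. Without NSCL61 array 1 limma called 0 of the 51, with 8 at an unadjusted p under 0.05, and without NSCL61 array 2 it called 1.

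By class, 1 of 11 SR proteins rose and none fell, and of 17 hnRNPs 1 rose and 2 fell. Of 8 tested genes of the let-7 pathway, in which Lin28 proteins act, none rose and 2 fell, Dicer1 and Hmga2. Over all genes tested, 10.0% rose and 9.19% fell. Hmga2, a chromatin protein whose mRNA is a classical let-7 target, had levels of 12.79 and 12.84 in NSCL61-sox11, against 13.22 and 13.19 in NSCL61. The arrays of a line were close and the lines apart, with a log2 fold change of -0.39 (SE 0.048, adjusted p = 0.00415).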

How the data were processed

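Total RNA of 4 samples was labelled with biotin and hybridised to Affymetrix M430_2 arrays, per the labels' protocols. For each array the authors deposited processed values of 45101 probe sets. The deposited values run from 2.13 to 14.62 and were read as log2 signal from that range, since the base, the summarisation and the normalization are not given in the sources used here. Array medians were 5.73 to 5.77, so no further scaling was applied. Gene names came from GEO's annotation of the platform, and a check against the RefSeq gene table of GRCm38.p6 updated 0 symbols. Of the probe sets, 34945 have 1 symbol, 932 several and 9160 none here, and 64 controls were left out.

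The test was limma's (version 3.58.1, R 4.3.3; lmFit, then eBayes with the trend option, two-sided), run on the brightest 60% of probe sets, 27022 with a mean of at least 5.15, with Benjamini-Hochberg adjustment over them and a threshold of 0.05. The design has 2 residual degrees of freedom, 6.36 after moderation, and an exact permutation test of 2 arrays against 2 cannot go below a p of 0.333. The number of arrays limits the precision. Differences between a gene's brightest probe set and its others were fitted by limma on per-array differences, adjusted over 10458 pairs. An SE printed with a log2 fold change is limma's moderated one.

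The members and lists were chosen with earlier results of these data known. Genes given full statistics are the called members, members with a called disagreement or a called probe set of opposite sign, the 2 brightest uncalled neuronal and progenitor members, and the 3 largest called rises and falls of the other list. Further members are given by value. Cpeb2, Cpeb4, Zfp36, Stau1 and Fmr1 were chosen for description, and Hmga2 for its levels, after values were seen. The alternatives were quantile normalization, median centring, scaling to poly-A or hybridisation controls, no level filter, the brightest 40% of probe sets, no trend, the mean of a gene's probe sets, no _x_at or _s_at probe sets, each array left out, and a replicate block. The fits were tested on simulated data with independent errors drawn from limma's own fitted model. Such data do not cover deviations that arrays share. Figures were drawn with matplotlib 3.10.9.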

Additional observations from a re-analysis of the deposited data

How the results depend on the processing

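Of all genes tested, 2510 were called with all arrays, 1354 with poly-A scaling, 908 to 2692 with 1 array left out and 4830 with a replicate block. Of the members, 13 were called with all arrays, 6 with poly-A scaling, 3 to 14 with 1 array left out and 21 with a replicate block. Of the other splicing and RNA-binding genes, 10 were called, against 5 with poly-A scaling, 4 with no intensity trend, 0 to 10 with 1 array left out and 16 with a replicate block. The 0 came without NSCL61 array 1, where 8 had an unadjusted p under 0.05 in limma. Called pairs of probe sets numbered 895, against 545 among the brightest 40% of probe sets, 426 with no intensity trend, 671 to 1063 with 1 array left out and 1202 with a replicate block, and called pairs of members numbered 7 to 15 over all settings. The neuronal median of -0.07 was -0.48 with poly-A scaling, -0.29 with hybridisation control scaling and -0.28 among the brightest 40%, where 5 genes were left. The progenitor median of -0.08 was -0.48 with poly-A scaling and -0.30 with hybridisation control scaling. Those scalings lowered every gene by a constant, and the cause of the other moves was not tested. Genes called higher in NSCL61-sox11 were 52.1% of all calls, and 22.4% with poly-A scaling, 23.1% with hybridisation control scaling and 67.5% without NSCL61 array 2. With the probe sets of a gene averaged, 9 of the 13 called members remained called; Elavl2, Pcbp2, Ptbp2 and Syncrip did not, and Celf4, Cpeb3 and Stau1 were added. Averaging could not be applied to pairs. The labels do not say whether arrays with the same replicate number were made together. The deviations of such arrays from the group means correlated at r = 0.41 over 27022 probe sets, and what they share was not tested. Members below the level filter are limited by dim signal.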

Other observations

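All 3 tested members on chromosome 4, Elavl2, Khdrbs1 and Ptbp3, rose, and of the 812 genes tested there 15.9% rose and 7.02% fell. On chromosome 15, Khdrbs3 and Pcbp2 fell and Rbfox2 did not pass the test, and of the 527 genes tested there 9.30% rose and 7.59% fell. On chromosome 3, Fxr1 and Ptbp2 fell and Celf3 and Mbnl1 did not pass, and of the 630 genes there 9.52% rose and 11.0% fell. On chromosome 11, 1 of 6 tested members fell, Fxr2, and of the 1118 genes there 7.33% rose and 7.96% fell. Other chromosomes were more uneven. Of 457 genes on chromosome 12, where Zfp36l1 rose and Pum2 did not pass, 4.81% rose and 21.4% fell. Chromosome 14, with Mbnl2, had 3.84% rises and 30.7% falls among 417 genes. Chromosome 7, with Zfp36, had 4.77% and 17.7% among 1028. Chromosome 10, with Pcbp3 and Ptbp1, had 20.2% and 4.33% among 623. No test of position was made.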
